A study of Mus musculus with 8 samples.

Results

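The collagen genes of the mouse pituitary were described in bulk RNA-seq libraries from control mice and from mice in which macrophages had been depleted. Members were the protein-coding genes of the count table whose name is Col, a type number, the letter a and a chain number. In all, 43 genes of the 54854 in the table were used, and they were sorted by the known structure of their proteins into 11 fibrillar, 8 basement membrane and 24 other collagens. Each of the 8 libraries came from the pituitary gland of a C57BL/6N mouse aged 5 weeks. The 4 treated mice had been exposed to AFS98, an antibody that blocks the CSF1 receptor (CD115, the product of Csf1r), first through the dam, which was given 3 mg at E6.5, and then by their own injections of 100 µg at P2, 150 µg at P14 and 200 µg when they were 4 weeks old. The 4 control mice had a rat IgG2a isotype antibody in its place. Replicate 1 of both groups was a female, and replicates 2 to 4 were males. The labels name no litters, so litter and treatment cannot be told apart, and the antibody acts on CSF1R-dependent cells of the whole animal, not of the pituitary alone.

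Collagens are secreted or membrane-bound proteins whose chains wind in groups into a triple helix. Fibrillar collagens assemble into the tension-bearing fibres made mostly by fibroblasts. Type IV collagen forms the sheet-like network of basement membranes, on which endothelial and epithelial cells rest. Types XV and XVIII, also known as multiplexins, sit in or next to that network. The anterior pituitary is crossed by a dense bed of fenestrated capillaries, and its endocrine cells lie in cords bounded by basement membrane.

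The libraries held 23289819 to 36218096 counts. Growth hormone transcripts, the defining product of the anterior lobe, took 13.5% to 23.0% of them, and the 43 collagen genes together 0.131% to 0.214%. All 12 macrophage markers listed were lower after anti-CD115 at the threshold (edgeR's quasi-likelihood test with Benjamini-Hochberg adjustment, adjusted p below 0.05). Their summed level was 215.9 to 311 CPM (counts scaled to library size with TMM factors) in controls and 13.4 to 51.7 CPM after treatment. Some libraries stood apart in the collagen genes. Control replicate 3 had the highest level of the 8 libraries for 14 of the 41 collagen genes tested, or 34.1%, against 20.9% of all genes, and anti-CD115 replicate 4 for 13, or 31.7%, against 12.6%. Control replicate 4 had the lowest level for 20, or 48.8%, against 14.2% of all genes, and control replicate 1 for 11, or 26.8%, against 11.8%.

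Per listed length, type IV collagen supplied the most abundant collagen transcript of the control gland. Levels of different genes are compared per length, as the FPKM values that the authors deposited. The order depends on that length, listed as 7464 bases for Col4a1 and 12426 for Col1a2. In CPM, which is not divided by length, Col1a2 had the higher control mean, 388 against 306 CPM for Col4a1. Col4a1, the main α1 chain of type IV collagen (chromosome 8, 11198423 to 11312826, minus strand, GRCm38), stood at 37.2 to 44.0 FPKM with a mean of 40.7 ± 2.86 (SD, n = 4). Its partner chain Col4a2 (chromosome 8, 11312805 to 11449287, plus strand) stood at 23.6 ± 2.51 FPKM (SD, n = 4). Between them lay Col1a2, the α2 chain of type I collagen (chromosome 6, 4504814 to 4541544), at 30.9 ± 5.14 FPKM (SD, n = 4). Col1a1, the α1 chain of type I (chromosome 11, 94936224 to 94953042), had a mean of 20.1 ± 10.9 FPKM (SD, n = 4). That large SD came with a single library, since control replicate 3 reached 36.3 FPKM, and the mean without it was 14.7 FPKM. The chain of type III collagen, Col3a1, which forms thin fibres together with type I, stood at 13.9 ± 4.36 FPKM (SD, n = 4).

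The order of levels was steep at the top and ran without clear steps below. The 5 highest genes made up 61.6% ± 2.97 (SD, n = 4) of the summed collagen FPKM in controls, and the 9 highest 79.0% ± 1.00. By class, basement membrane collagens took 42.4% ± 4.85, fibrillar collagens 34.8% ± 4.72 and the others 22.8% ± 2.68 (SD, n = 4 each). These shares, too, depend on the listed lengths. In CPM, fibrillar collagens summed to 626 to 1028 in controls (mean 747) and basement membrane collagens to 554 to 702 (mean 630). In all, 7 genes had a control mean above 10 FPKM, 24 above 1 FPKM and 38 above 0.1 FPKM. Of neighbours in the order, only Col1a2 and Col4a2, and Col11a1 and Col8a1, had ranges over the 4 controls that did not overlap.

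Among basement membrane collagens, Col15a1 stood at 10.2 ± 1.61 FPKM and Col18a1, whose protein carries the fragment endostatin, at 6.14 ± 1.253 FPKM (SD, n = 4 each). The remaining type IV chains were lower. Col4a5 was at 4.43 ± 0.713 FPKM and Col4a6 at 1.254 ± 0.273 FPKM, while Col4a4 and Col4a3, best known from the filtration membrane of the kidney, were at 1.02 ± 0.194 and 0.648 ± 0.107 FPKM (SD, n = 4 each). Every type IV chain was thus detected in every library.

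The fibrillar class split into an abundant and a sparse part. After Col1a2, Col1a1 and Col3a1 came the type V and type XI chains, which help to set fibre thickness. Col5a1 was at 2.87 ± 0.655, Col11a1 at 2.41 ± 0.101 and Col5a2 at 1.56 ± 0.445 FPKM (SD, n = 4 each). The cartilage collagen Col2a1 stood at only 0.289 ± 0.0605 FPKM (SD, n = 4), and Col27a1, Col5a3, Col11a2 and Col24a1 all had means below 1 FPKM.

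In the remaining classes the transmembrane collagen Col13a1 was the most abundant, with 10.8 ± 4.05 FPKM (SD, n = 4), next to the type VI chains Col6a1 at 9.65 ± 2.87 and Col6a2 at 6.06 ± 2.76 FPKM. Type VI collagen builds beaded filaments around cells. Col23a1, another transmembrane collagen, was at 5.27 ± 2.44 FPKM (SD, n = 4), with a low value of 1.99 FPKM in control replicate 4. Col10a1, the collagen of hypertrophic cartilage, had 0 to 5 counts in a library and was at 0 in 3 of the 8. A library with no count allows up to 3 counts, worth 0.0881 to 0.126 CPM, and such limits cover counting error only. Col10a1 and Col6a5 were too sparse to be tested, which left 41 members.

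**Figure D1:**
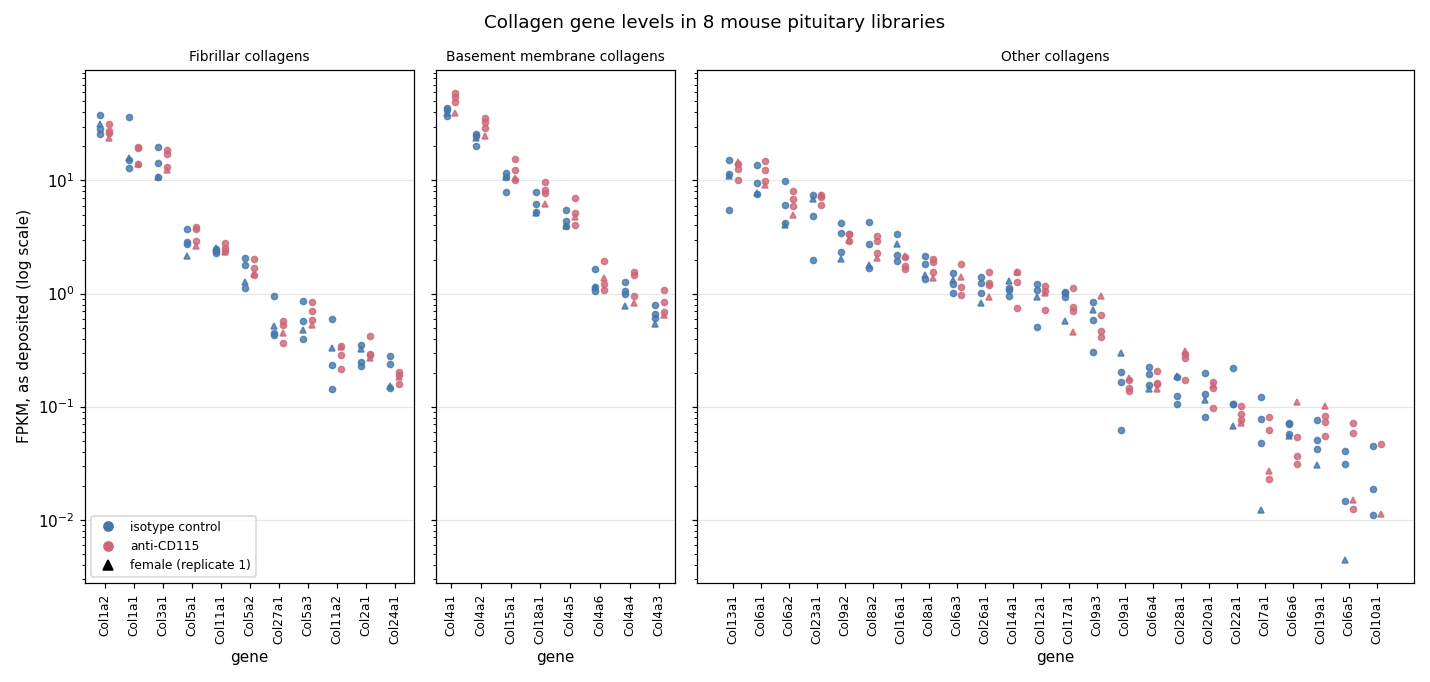
FPKM of the 43 collagen genes in each library on a log scale, by class and in order of the control mean, with isotype controls in blue, anti-CD115 in red and the female of each group as a triangle; values of 0, all of Col10a1, are not drawn. Col4a1 and Col1a2 lead their classes, and fibrillar levels drop between Col3a1 and Col5a1.

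The first comparison asked whether collagen transcripts differed after macrophage depletion. None of the 41 members passed in edgeR over all genes tested (adjusted p below 0.05), in either direction, and the smallest adjusted p was 0.275; 0.869% of the 17723 genes tested passed. DESeq2 called 0 members as well. An unadjusted p below 0.05 was found for 5 members, or 12.2%, against 10.3% of all genes. For no member did the 4 treated libraries lie wholly above or below the 4 controls, which was the case for 5.78% of all genes.

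The 8 basement membrane collagens had the most uniform values, although none passed. All 8 had a log2 fold change above 0, from 0.15 to 0.36 with a median of 0.27, while 50.9% of all genes had one above 0 and the median of all genes was 0.00406. The 3 smallest unadjusted p-values of the family belonged to this class. All 8 were measured in the same libraries, so their signs are not independent.

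Col4a2 stood at 158, 172, 167 and 134 CPM in control replicates 1 to 4 and at 166, 219.7, 195 and 237 CPM in anti-CD115 replicates 1 to 4. The treated female lay within the control range, while the 3 treated males lay above all controls. The means were 158 ± 17.0 and 204 ± 31.1 CPM (SD, n = 4 each), a 1.29-fold ratio (log2 fold change 0.36, SE 0.11, edgeR adjusted p = 0.275).

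Col4a1 stood at 299, 329.7, 317 and 279.6 CPM in controls and at 298, 409, 374 and 445 CPM after anti-CD115. Here, too, the treated female was among the controls and the 3 treated males were above them. Its log2 fold change was 0.30 (SE 0.10, edgeR adjusted p = 0.316).

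Col18a1 (chromosome 10, 77052178 to 77166548) was at 36.4, 55.6, 44.4 and 37.4 CPM in controls and at 43.4, 58.0, 54.6 and 68.9 CPM after treatment. The groups overlapped, with control replicate 2 above treated replicates 1 and 3. The log2 fold change was 0.36 (SE 0.12, edgeR adjusted p = 0.338). Col15a1 overlapped more widely, at 50.1 to 73.7 CPM in controls and 65.1 to 98.8 CPM after treatment (log2 fold change 0.24, SE 0.15, adjusted p = 0.633).

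These values rested in part on a few libraries. Without control replicate 4 the median of the class was 0.21, without anti-CD115 replicate 4 it was 0.15 with 7 of 8 above 0, and with control replicates 3 and 4 both left out it was 0.12, again with 7 of 8 above 0. Without the low-count filter, where edgeR called 1.52% of 32025 genes, Col4a2 (adjusted p = 0.0263) and Col18a1 (0.0497) passed.

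Markers of several cell types had values on the same side, with none past the threshold. All 8 endothelial markers listed, among them Pecam1, Cdh5, Kdr and Plvap, had log2 fold changes above 0 (median 0.28), and 4 of them placed the treated libraries above all controls, as 2.47% of all genes did, and none passed in edgeR (smallest adjusted p 0.290). Their summed level was 349.8 to 524 CPM in controls, lowest in control replicate 4, and 532 to 598 CPM after anti-CD115, and none of the markers was at 0 in all libraries. Of the 8 mural cell markers 7 had a log2 fold change above 0 (median 0.36), 2 placed the treated libraries above all controls and 0 passed, with a sum of 203 to 308 CPM in controls and 264 to 401 CPM after treatment. All 4 stem and folliculostellate cell markers had one above 0 (median 0.21) and 0 passed, with a sum of 85.9 to 111 CPM in controls and 104 to 119 CPM after treatment. In bulk tissue more cells of a type and more RNA per cell cannot be told apart. The part of these cells in the collagen values was not tested.

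**Figure D2:**
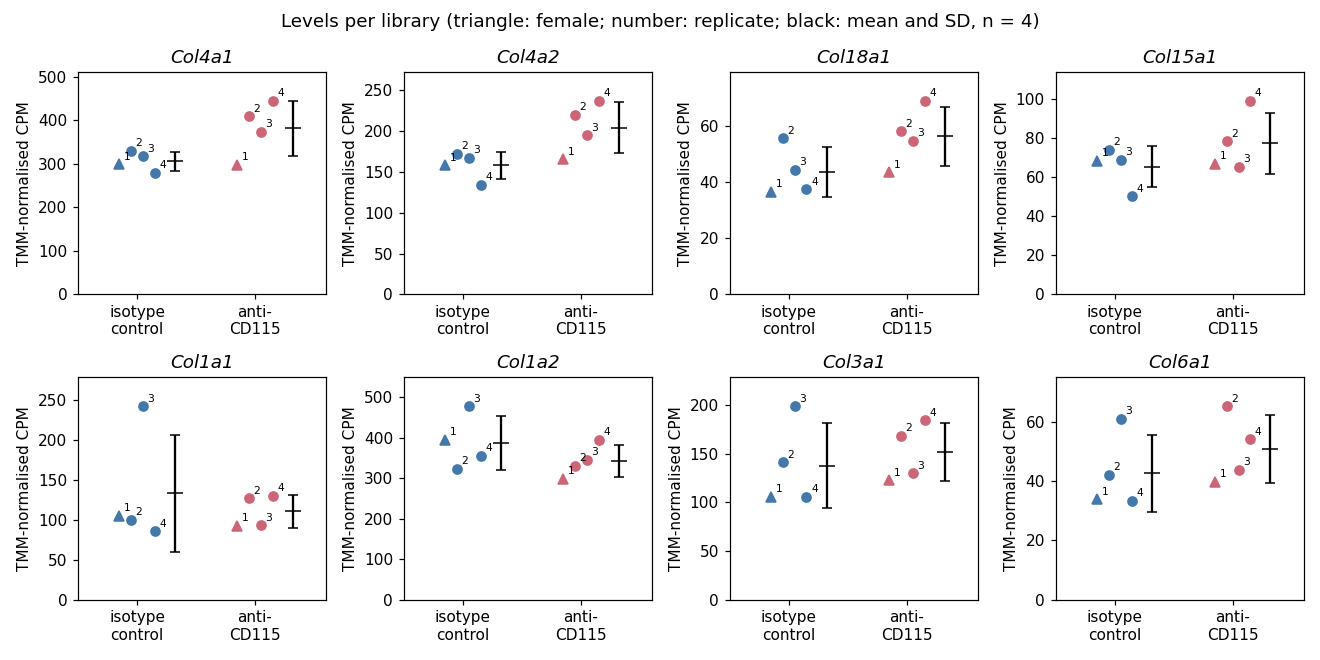
TMM-normalised CPM of 8 leading collagen genes in each library, with the replicate number beside the point, the female as a triangle, and the group mean with SD (n = 4) in black. For Col4a1 and Col4a2 the 3 treated males lie above the controls and the treated female does not, whereas for Col1a1 control replicate 3 lies far above the other 7 libraries.

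Fibrillar collagens showed no common direction. Of the 11, 6 had a log2 fold change above 0 and 5 below, the median was 0.056, and none had an unadjusted p below 0.05. Col1a1 stood at 105, 100.3, 243 and 85.5 CPM in controls and at 92.2, 127, 93.0 and 130 CPM after anti-CD115. All libraries but control replicate 3 lay between 85.5 and 130 CPM. With that library the log2 fold change was -0.27 (SE 0.28, edgeR adjusted p = 0.784), and without it the value turned to 0.18 (adjusted p = 0.687).

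Col1a2 was at 394, 323, 478 and 355 CPM in controls and at 298, 331, 345 and 394 CPM after treatment, with control replicate 3 again the highest (log2 fold change -0.19, SE 0.12, adjusted p = 0.650, edgeR). Col3a1 was at 106, 141, 199 and 105 CPM in controls and at 123, 168, 130 and 184 CPM after treatment (0.14, SE 0.17, adjusted p = 0.820, edgeR). Without control replicate 3 the value of Col1a2 was -0.069 and that of Col3a1 0.33, and the class had 9 of 11 values above 0 with a median of 0.18. Without anti-CD115 replicate 4 the class median was -0.036.

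Some of the 10 cartilage and bone markers listed were highest in the same control library, and others were not. Bglap, which encodes osteocalcin, was at 2.31 CPM in control replicate 3 and at 0.546 CPM or less in the rest. Ibsp, bone sialoprotein, was at 1.69 CPM there and at 0.252 CPM or less elsewhere, and the cartilage and tendon matrix protein Comp was at 4.92 CPM there and at 0.179 CPM or less elsewhere. The 10 cartilage and bone markers summed to 15.8 to 29.7 CPM in controls, highest in that library, and to 11.7 to 17.4 CPM after treatment. Most of the sum came from Hapln1, a cartilage link protein, which was highest in control replicate 4 at 22.8 CPM and at 17.5 CPM in control replicate 3. Matn3 reached 0.126 CPM at most, in both control replicate 1 and anti-CD115 replicate 4. Dmp1 was highest in anti-CD115 replicate 3, at 0.382 CPM. Of the markers 2 were dense enough to be tested, none passed, and Matn1 was at 0 in all 8 libraries. The 8 fibroblast markers summed to 170 to 321 CPM in controls, again highest in control replicate 3 and lowest in replicate 4, and to 217 to 305 CPM after anti-CD115; none passed, and the median log2 fold change was -0.067. Their part in the collagen values was not tested.

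**Figure D3:**
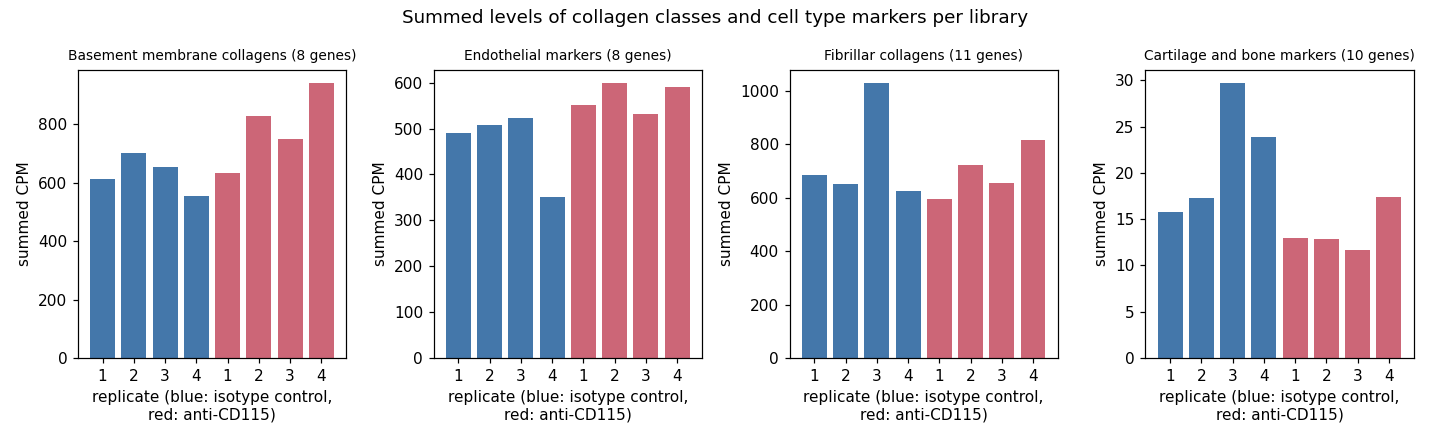
Summed CPM per library of the 8 basement membrane and 11 fibrillar collagens and of the 8 endothelial and 10 cartilage and bone markers, with isotype controls in blue and anti-CD115 in red. Endothelial markers are lowest in control replicate 4, and fibrillar collagens and cartilage and bone markers are both highest in control replicate 3.

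The other collagens spread widely around 0. Of 22 tested, 13 had a log2 fold change above 0 and 9 below, from -0.56 to 0.78 with a median of 0.076. Without control replicate 4 only 7 of the 22 lay above 0 (median -0.098), and without control replicate 3 the count was 17 (median 0.19). Type VI chains overlapped between groups. Col6a1 was at 33.9, 42.2, 61.2 and 33.4 CPM in controls and at 39.9, 65.4, 43.8 and 54.2 CPM after anti-CD115 (log2 fold change 0.25, SE 0.18, edgeR adjusted p = 0.666). Col6a2 was at 34.1, 50.3, 84.5 and 35.0 CPM in controls and at 41.7, 67.6, 49.4 and 57.3 CPM after treatment (0.10, SE 0.22, adjusted p = 0.916, edgeR), and its value was -0.072 without control replicate 4 and 0.40 without control replicate 3.

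Col13a1 was at 51.3, 70.7, 54.0 and 25.3 CPM in controls and at 67.1, 58.8, 47.3 and 64.9 CPM after treatment. Control replicate 4 lay below the other 7 libraries. The log2 fold change was 0.24 (SE 0.24, edgeR adjusted p = 0.783), and it was 0.020 without that library.

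Col28a1, a von Willebrand factor A domain collagen found around peripheral glia in mice, had the highest log2 fold change of the family. It was sparse, at 0.924, 0.910, 0.622 and 0.524 CPM in controls and at 1.54, 1.32, 0.851 and 1.43 CPM after anti-CD115. Treated replicate 3 lay among the controls and the other 3 treated libraries above them (0.78, SE 0.28, edgeR adjusted p = 0.372).

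The fibril-associated collagens Col16a1 and Col22a1 stood at the other end. Col16a1 was at 18.7, 13.3, 23.3 and 14.99 CPM in controls and at 14.7, 11.8, 11.2 and 14.3 CPM after treatment (log2 fold change -0.44, SE 0.17, edgeR adjusted p = 0.415), and -0.24 without control replicate 3. Col22a1, known from muscle and tendon junctions, was at 0.630, 0.980, 2.04 and 0.979 CPM in controls and at 0.666, 0.929, 0.705 and 0.799 CPM after treatment. Its log2 fold change of -0.56 (SE 0.33, edgeR adjusted p = 0.596) was -0.18 without control replicate 3, the library that lay above the other 7.

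**Figure D4:**
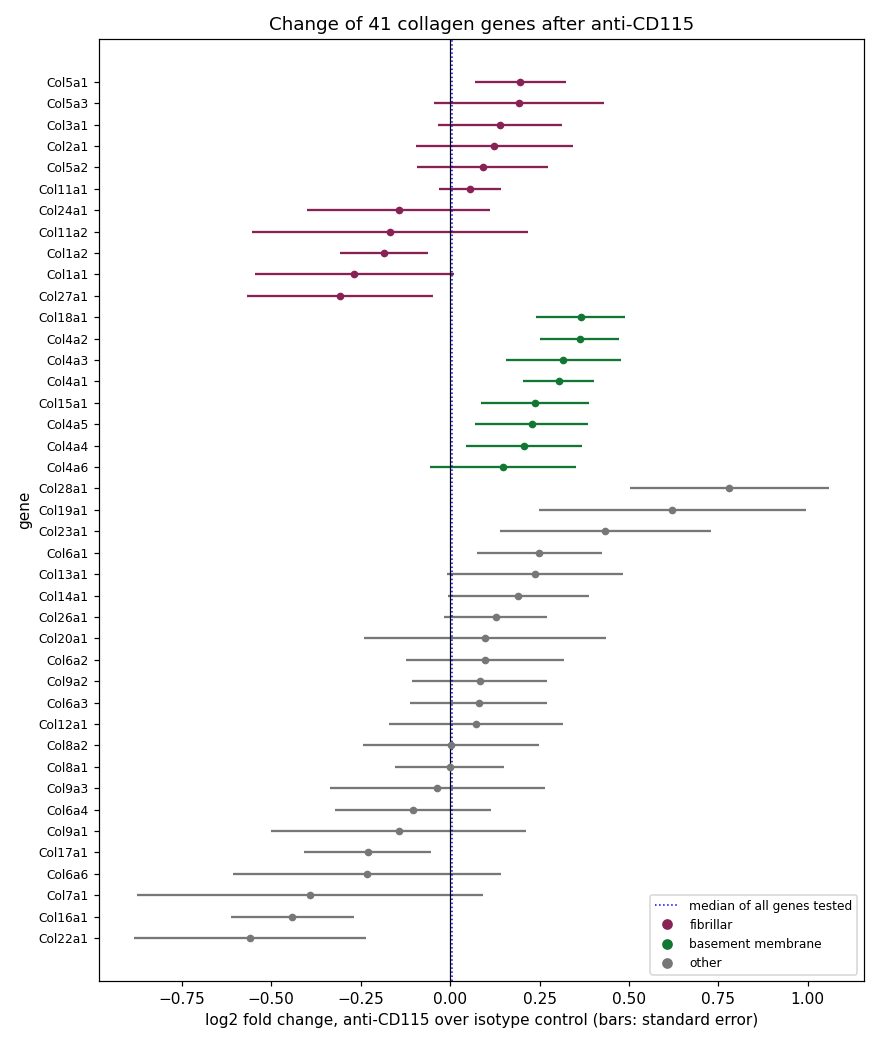
Log2 fold change with standard error of the 41 collagen genes tested, by class, with the median of all genes as a dotted line. All 8 basement membrane collagens lie above 0, fibrillar collagens lie on both sides, and the others run from -0.56 (Col22a1) to 0.78 (Col28a1); none passed the threshold.

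Chains that share a trimer were then compared within each library. Type IV chains are encoded in head-to-head pairs. The annotated Col4a1 and Col4a2 genes overlap by 22 bases at their starts, on opposite strands. The start sites of Col4a4 and Col4a3 on chromosome 1 lie 72 bases apart, and those of Col4a6 and Col4a5 on the X chromosome 1309 bases apart. The Col4a1 and Col4a2 windows, each from 250 bases before to 50 after the RefSeq start (GRCm38.p6), are shown because they share 78 bases, read in opposite directions. Col1a2 is shown beside them as a fibrillar chain whose partner lies on another chromosome. Each is written 5′ to 3′ on the strand of its gene, with capitals marking GGGCGG and CCAAT on either strand.
Col4a1, chr8:11312777-11313076, minus strand: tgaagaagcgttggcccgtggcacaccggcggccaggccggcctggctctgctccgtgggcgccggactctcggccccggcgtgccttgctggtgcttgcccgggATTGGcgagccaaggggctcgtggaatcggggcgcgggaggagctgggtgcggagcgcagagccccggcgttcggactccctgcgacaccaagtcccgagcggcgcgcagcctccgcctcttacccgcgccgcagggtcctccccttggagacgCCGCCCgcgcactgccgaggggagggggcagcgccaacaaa
Col4a2, chr8:11312555-11312854, plus strand: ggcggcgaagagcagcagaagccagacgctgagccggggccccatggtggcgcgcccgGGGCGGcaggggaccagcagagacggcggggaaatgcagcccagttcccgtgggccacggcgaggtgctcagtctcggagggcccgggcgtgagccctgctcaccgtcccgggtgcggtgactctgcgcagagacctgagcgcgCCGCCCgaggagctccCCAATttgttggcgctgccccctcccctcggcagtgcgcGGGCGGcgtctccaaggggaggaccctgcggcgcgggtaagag
Col1a2, chr6:4505368-4505667, plus strand: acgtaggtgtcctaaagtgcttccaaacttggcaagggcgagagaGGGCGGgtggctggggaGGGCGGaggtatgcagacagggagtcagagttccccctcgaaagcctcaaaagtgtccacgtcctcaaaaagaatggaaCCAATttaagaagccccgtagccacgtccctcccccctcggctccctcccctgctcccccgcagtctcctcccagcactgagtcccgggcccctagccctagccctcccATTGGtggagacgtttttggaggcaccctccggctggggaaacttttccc

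A window was found for 34 of the 43 collagen genes, 37 windows in all. GGGCGG, the core of the GC box, or its reverse complement was present in 59.5% of these 37 windows and in 35.6% of 32817 windows of the same length. CCAAT was present in 32.4% and 37.4%, and TATAAA in 13.5% and 13.6%. The Col4a1 window held 1 GGGCGG and 1 CCAAT match, the Col4a2 window 3 and 1, and the Col1a2 window 2 and 2. The GGGCGG match of Col4a1 lies in the 78 shared bases. It is the same site as 1 of the 3 in the Col4a2 window, and it was counted for both genes. None of these windows held TATAAA. Guanine and cytosine made up 74.0%, 73.7% and 61.0% of the 3 windows. The window of Col3a1, another fibrillar chain, is not shown. It held 0 GGGCGG, 0 CCAAT and 1 TATAAA match, and guanine and cytosine made up 37.7% of it. A match is a string of letters, not a shown binding site.

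Across the 8 libraries, Col4a1 and Col4a2 followed each other closely on the log2 CPM scale. Pearson's r was 0.976 (exact permutation p = 9.92e-05, adjusted over 6 pairs 5.95e-04) and Spearman's rho 0.976 (exact permutation p = 3.97e-04, adjusted 0.00238). Without anti-CD115 replicates 2 and 4, the libraries farthest from the median, r was 0.923. The r was 0.965 within controls and 0.991 within treated libraries, 4 libraries each.

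The type VI chains Col6a1 and Col6a2, neighbours on chromosome 10, gave r = 0.953 (exact permutation p = 5.95e-04, adjusted 0.00179) and rho = 0.929 (exact p = 0.00223, adjusted 0.00670), and r = 0.963 without control replicate 3 and anti-CD115 replicate 2. Col1a1 and Col3a1 gave r = 0.816 (exact permutation p = 0.00392, adjusted 0.00784) and rho = 0.857 (exact p = 0.0107, adjusted 0.0214), and r = 0.718 without control replicate 3 and anti-CD115 replicate 4.

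For the type I chains, Col1a1 and Col1a2 gave r = 0.792 (exact permutation p = 0.0486, adjusted 0.0583) and rho = 0.571 (exact p = 0.151, adjusted 0.151). The r was 0.881 within controls and 0.637 within treated libraries, and without TMM factors it was 0.830 over the 8 libraries, which passed (exact permutation test, adjusted p = 0.0283). Without control replicate 3 and anti-CD115 replicate 4 r was 0.055, so the relation rested on those libraries. Col5a1 and Col5a2 gave r = 0.728 (exact permutation p = 0.0402, adjusted 0.0583) and rho = 0.643 (exact p = 0.0962, adjusted 0.138), and r = 0.586 without control replicate 1 and anti-CD115 replicate 4; without TMM factors r was 0.755, which passed (exact permutation test, adjusted p = 0.0326). Between classes, Col1a1 and Col4a1 gave r = 0.210 (exact permutation p = 0.622, adjusted 0.622) and rho = 0.619 (exact p = 0.115, adjusted 0.138), and r = 0.702 without control replicate 3 and anti-CD115 replicate 4. The difference between these correlations was not tested.

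**Figure D5:**
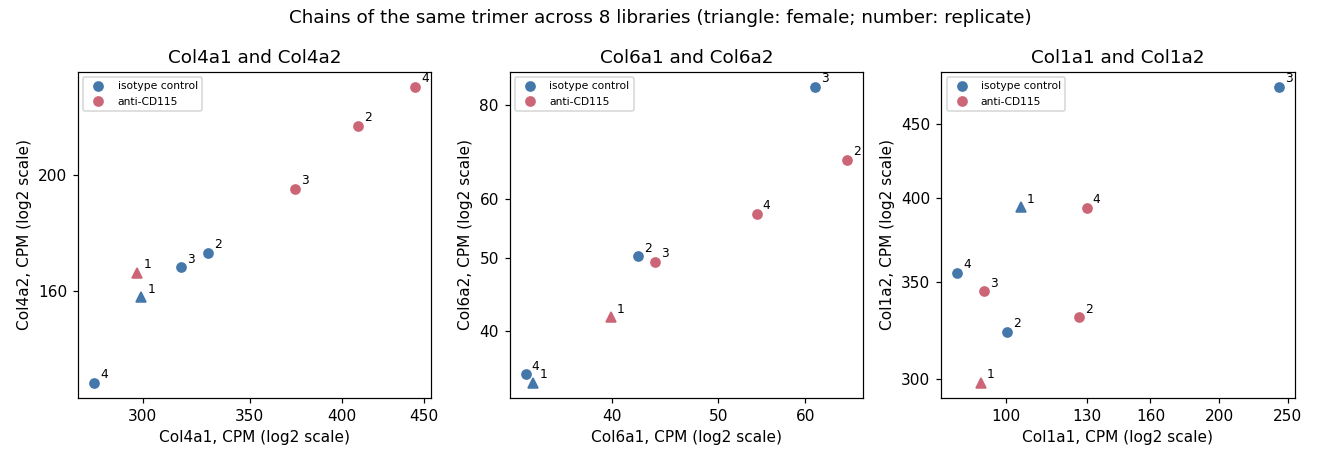
CPM of Col4a2 against Col4a1, Col6a2 against Col6a1 and Col1a2 against Col1a1 in the 8 libraries, on log2-scaled axes, with the replicate number beside the point, isotype controls in blue, anti-CD115 in red and females as triangles. The type IV and type VI pairs lie along a line, and the type I pair is drawn out by control replicate 3.

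Ratios of chains were taken per length. Type IV collagen of the common kind has α1 and α2 chains in a fixed proportion, with more α1 than α2. Col4a1 over Col4a2 was 1.73 ± 0.0826 in controls and 1.65 ± 0.0454 after anti-CD115 (SD, n = 4 each); the difference was -0.074 (two-sided exact permutation p = 0.143, adjusted over 6 ratios 0.600). Type I collagen likewise holds more α1 than α2 chains, yet Col1a1 over Col1a2 was 0.627 ± 0.229 in controls and 0.612 ± 0.0894 after treatment (SD, n = 4 each; exact permutation p = 0.971, adjusted 0.971). In each of the 8 libraries this ratio was below 1, from 0.455 in control replicate 4 to 0.962 in control replicate 3. FPKM divides by the listed gene length, 12426 bases for Col1a2 and 6563 for Col1a1, so the size of the ratio depends on the transcripts that the annotation merges. In CPM, which is not divided by length, Col1a1 was also below Col1a2, with control means of 133 and 388 CPM.

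Col6a1 over Col6a2 was 1.67 ± 0.232 and 1.79 ± 0.0684, Col5a1 over Col5a2 1.90 ± 0.449 and 1.98 ± 0.182, Col4a3 over Col4a4 0.637 ± 0.0489 and 0.697 ± 0.0936, and Col4a5 over Col4a6 3.56 ± 0.238 and 3.77 ± 0.335, in controls and treated mice in turn (SD, n = 4 each; exact permutation test, smallest adjusted p 0.600). With 4 against 4 libraries the smallest p this test can give is 0.0286, which adjusts to 0.171 for a ratio that reaches it alone, so the adjusted values say little about whether any ratio differed.

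The genes around collagen were read from lists of synthesis, breakdown, receptor and partner genes. Lair1 and Mrc1 passed in edgeR and no other gene of these lists did, while among all genes 0.869% passed and 50.9% had a log2 fold change above 0. Lair1, an inhibitory collagen receptor of leukocytes, was at 4.49, 5.00, 4.24 and 6.01 CPM in controls and at 1.47, 1.43, 1.38 and 0.883 CPM after anti-CD115. The groups did not overlap, and Lair1 fell 3.79-fold (log2 fold change -1.92, SE 0.21, edgeR adjusted p = 0.00201). It was the 1 of 9 receptors tested that passed, while the integrin chains Itga1, Itga2, Itga10, Itga11 and Itgb1 and the kinases Ddr1 and Ddr2 did not.

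Mrc1, the mannose receptor, which takes up collagen fragments and marks resident macrophages, was at 3.95, 5.07, 6.37 and 2.80 CPM in controls and at 0.316, 0.750, 1.23 and 0.757 CPM after treatment. It fell 6.06-fold (log2 fold change -2.60, SE 0.34, edgeR adjusted p = 0.00408). It was the 1 of 14 breakdown and uptake genes that passed. The gelatinase Mmp2, the membrane collagenase Mmp14, the lysosomal collagenase Ctsk and the inhibitors Timp1 to Timp4 did not. Of the 14, 4 had an unadjusted p below 0.05, or 28.6%, against 10.3% of all genes, with Mrc1 among the 4. The collagenase Mmp13 was called lower by edgeR without the low-count filter, where 1.52% of genes passed (log2 fold change -2.88, adjusted p = 0.0250). Mrc1 is also on the macrophage list, and Lair1 is known from the same cells.

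Of 30 genes of collagen synthesis and processing tested, 0 passed, 19 had a log2 fold change above 0 and 11 below, and the median was 0.038. The list holds the prolyl and lysyl hydroxylases, the chaperone Serpinh1, the propeptide proteinases and the crosslinking lysyl oxidases. Its smallest unadjusted p was that of Lox, the founding lysyl oxidase, at 28.9, 31.2, 29.96 and 32.2 CPM in controls and 36.6, 42.3, 32.7 and 37.3 CPM after treatment. The treated libraries lay above all controls (log2 fold change 0.28, SE 0.09, edgeR adjusted p = 0.309).

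Of 15 basement membrane partners, the laminin chains, nidogens, perlecan and agrin, 0 passed, 14 had a log2 fold change above 0, and the median was 0.20. Lamb1, the laminin β1 chain, was at 49.4, 59.6, 49.2 and 46.0 CPM in controls and at 66.2, 71.1, 58.1 and 81.6 CPM after anti-CD115. The groups overlapped only between control replicate 2 and treated replicate 3 (log2 fold change 0.44, SE 0.12, edgeR adjusted p = 0.193). DESeq2, which called 1.51% of all genes, called it (adjusted p = 0.0401), as did edgeR without the low-count filter (0.00607).

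Of 14 partners of collagen fibrils, 0 passed. Their log2 fold changes ran from -2.06 to 0.26, with a median of 0.065. Decorin, biglycan and lumican were among them. The smallest p was that of fibulin 1, Fbln1, at 20.2, 31.0, 43.6 and 29.2 CPM in controls and at 17.0, 31.0, 20.9 and 22.3 CPM after treatment, with overlapping groups (log2 fold change -0.43, SE 0.16, edgeR adjusted p = 0.383). Fmod, another gene of this list, was called lower by edgeR only without the low-count filter, where 1.52% of genes passed (log2 fold change -2.06, adjusted p = 0.00175).

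The same model compared the 2 females with the 6 males. No collagen gene passed in edgeR, where 0.491% of all genes did. A log2 difference below 0, lower in females, was found for 29 of 41 members, or 70.7%, against 50.2% of all genes. An unadjusted p below 0.05 was found for 7 members, or 17.1% of those tested, all lower in females. Of all genes, 4.16% had such a p and were lower in females, and 1611 of 17723 had one in either direction. All 8 basement membrane and 10 of 11 fibrillar collagens were on this side, with medians of -0.22 and -0.26. Of the other collagens 11 of 22 were, with a median of 0.00760. The 7 members with an unadjusted p below 0.05 were 1 of the 11 fibrillar, 2 of the 8 basement membrane and 4 of the 22 other collagens, and the difference between classes was not tested. With 1 female in a treatment group, females are assumed to vary like males. No member passed in a test of sex by treatment, where 0.0395% of all genes did.

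Col17a1, a transmembrane collagen of hemidesmosomes, was singled out after its values had been seen. Its level was 3.32 CPM in the control female, 2.63 CPM in the treated female and 4.04 to 6.52 CPM in the 6 males, with a male median of 5.66 CPM, so the sexes did not overlap. The log2 difference was -0.86 (SE 0.22, edgeR adjusted p = 0.168), and DESeq2, which called 1.9% of all genes by sex, gave an adjusted p of 0.0252. Without the low-count filter, where 1.88% of genes passed by sex, it was 0.0326.

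A pair of collagen-processing genes passed by sex and were likewise named after the fact. Adamts2, the proteinase that removes the amino-terminal propeptide of fibrillar procollagens, was at 9.54 and 9.996 CPM in the females and at 17.8 to 26.7 CPM in the males, with a median of 20.3 CPM (log2 difference -1.10, SE 0.15, edgeR adjusted p = 0.0129). P4ha2, a catalytic subunit of prolyl 4-hydroxylase, was at 38.4 and 43.8 CPM in the females and at 57.6 to 80.4 CPM in the males, with a median of 67.7 CPM (-0.73, SE 0.13, edgeR adjusted p = 0.0452). The call of Adamts2 ended without the control female (adjusted p = 0.149) or the treated female (0.0622). That of P4ha2 ended without either female (0.509 and 0.114), without control replicate 3 (0.0584) or 4 (0.0684), and without treated replicate 3 (0.108) or 4 (0.0776), as it did with control replicates 3 and 4 both left out (0.0868).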

How the data were processed

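RNA was sequenced from 8 mouse pituitaries, with stranded mRNA libraries, per the labels' protocols. Per the submitters' processing notes, the tools were featureCounts 1.5.0-p3, HISAT2 2.0.5 and StringTie 1.3.3b, on GRCm38; settings, use of strand and treatment of shared reads are not given in the sources used here, so reads of overlapping genes such as Col4a1 and Col4a2 at their starts cannot be assigned with certainty. Counts per gene were deposited by the authors as whole numbers, not normalised. The deposited FPKM values equal those counts over listed length and a size within -5.37% to 5.98% of the library total. Replicates differed beyond sampling noise (chi-square over its degrees of freedom at least 15.5). Nothing in the labels ties replicates to litters, and p-values measure the spread between these mice.

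Counts were fitted in R 4.3.3 with edgeR 4.0.16 (filterByExpr, TMM factors of 0.941 to 1.05, quasi-likelihood test, terms for sex and treatment) on 17723 genes, with Benjamini-Hochberg adjustment over all of them at 0.05. Standard errors came from the F statistic. The fit was tested on simulated data, with 50 genes changed at each fold. It called 12% of them at 1.25-fold, 52% at 1.5-fold, 82% at 2-fold and 100% at 4-fold. The changed genes were drawn from those with a mean above 1 CPM, and no sex effect was simulated. These shares therefore do not cover sparser members such as Col19a1. DESeq2 1.42.0 was an alternative. Chain ratios and pairs used exact permutation tests in scipy 1.17.1, with a prior count of 2 for log2 CPM. Named members were those past a threshold, the 3 most abundant of each class, the 5 with the smallest treatment p and the highest and lowest log2 fold change; from each other list, genes past the threshold and the one with the smallest p. Members and lists were chosen with earlier results of these data known. Further genes are said to be named after the fact. All 43 identifiers were found in GENCODE M21, and promoter windows came from RefSeq. Also, 1 collagen-named gene was not used here, and triple-helix features of the proteins were not analysed here.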

Additional observations from a re-analysis of the deposited data

Results flagged for a closer look

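In 44 groups of 4 values (the named members, the class sums and the chain ratios in each treatment group), 3 values lay far from the rest of their group by Dixon's test. They came from control replicates 3 and 4. Chance alone gives such a value in about 1 of 20 groups, so a few are expected among 44. The groups are also not independent. Col1a1 was at 243 CPM in control replicate 3, against 85.5 to 105 CPM in the other controls. The summed level of fibrillar collagens was 105 FPKM in that same library, against 59.9 to 65.9 FPKM in the other controls; Col1a1 is part of this sum. The Col4a1 to Col4a2 ratio was 1.85 in control replicate 4, against 1.68 to 1.70 in the other controls.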

How the results depend on the processing

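The count of collagen genes passing for treatment was 0 in the main fit and in every alternative run, with 1 exception, the fit without the low-count filter, which gave 2 (Col4a2 and Col18a1). Over all genes the count was 154 in the main fit, 268 with DESeq2, 487 without the low-count filter, 89 to 120 with 1 library left out and 44 with control replicates 3 and 4 both left out, a choice made after seeing the data. By sex the count of members was 0, against 1 with DESeq2 (Col17a1) and 2 without the filter (Col17a1 and Col6a2). Breakdown and uptake genes gave 1, against 2 without the filter, 2 in males alone, and 1 to 2 with 1 library left out; the added gene was the collagenase Mmp13. Basement membrane partners gave 0, against 1 with DESeq2 and 1 without the filter (Lamb1), and fibril partners gave 0, against 1 without the filter (Fmod). With 1 library left out, the log2 fold change ran from -0.45 to 0.18 for Col1a1 and from -0.072 to 0.40 for Col6a2, and the treated minus control ratio from -0.073 to 0.096 for Col1a1 over Col1a2 and from -0.039 to 0.295 for Col5a1 over Col5a2. With control replicates 3 and 4 both left out, Col1a1 gave 0.048 and Col13a1 -0.048. Without TMM factors the r of Col1a1 and Col1a2 was 0.830 (exact permutation test, adjusted p = 0.0283) and that of Col5a1 and Col5a2 0.755 (adjusted p = 0.0326). The cause of these shifts was not tested. Replicate numbers were not shown to pair the mice: deviations from the group means correlated at 0.337, -0.062, 0.045 and 0.233 for numbers 1 to 4, and the fit with a replicate block called 118 genes and 0 members.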
